A study of Drosophila melanogaster with 3 samples.

Results

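The 73 genes described here encode proteins of the mitochondrial ribosome. They were taken by name, as the protein-coding genes of the Ensembl BDGP6 annotation whose symbol starts with mRpL or mRpS, and make up 47 large subunit and 26 small subunit genes among 13968 protein-coding genes. The question asked was where Bdp1, tagged with green fluorescent protein (GFP), was found at their 5' ends. Chromatin immunoprecipitation with an anti-GFP antibody (ChIP-seq) was done on whole Drosophila melanogaster embryos of both sexes, 0 to 24 h old. The embryos came from a single transgenic line, CG9305-GFP, which stably expresses Bdp1 (CG9305) with GFP at its C-terminus. All 3 biological replicates belong to this 1 group, and no untagged line was analysed here. The promoter that drives the fusion is not given in the sources used here. Peak lists hold no expression values, so the transcripts of these genes were not measured. In whole embryos, fewer cells with Bdp1-GFP at a site and less of it per cell cannot be told apart.

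The mitochondrial ribosome translates the few messenger RNAs encoded by mitochondrial DNA, which specify core subunits of the oxidative phosphorylation complexes. Its proteins are encoded in the nucleus, transcribed by RNA polymerase II, made in the cytosol and imported. Bdp1 belongs to TFIIIB, which recruits RNA polymerase III (Pol III) to tRNA genes, 5S rRNA genes and other genes of short RNAs. Protein-coding genes are not among its usual templates. Many symbols follow the numbering of bacterial ribosomal proteins, and others name proteins that bacterial ribosomes lack. Subunits are given by symbol only. The mammalian counterparts of mRpS18A and mRpS30 sit in the large subunit.

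A Bdp1-GFP peak reached within 100 bp of a 5' end at 21 of the 73 genes, or 28.8% (95% exact Clopper-Pearson interval 18.8 to 40.6%, counting error over genes only). The strongest of them, at mRpS10, mRpL41 and mRpL23, stood apart from the other 18 in all 3 replicates. The peaks are the authors' optimal ones, selected over the replicates by the irreproducible discovery rate (IDR) procedure, and a gene was counted when such a peak overlapped the 100 bp on either side of any of its transcript 5' ends. At mRpS2, mRpL21 and mRpS26 the peak did not cover the 5' end itself. The 236 optimal peaks that also reached 100 bp from the 5' end of a Pol III gene were left out, which removed none of the 73. Over all protein-coding genes the share was 13.6% (1899 genes). Large subunit genes had a peak in 13 of 47 cases (27.7%, interval 15.6 to 42.6%) and small subunit genes in 8 of 26 (30.8%, interval 14.3 to 51.8%), and these intervals overlap over most of their length. The set was chosen with earlier results of these data known, so the counts are given beside those of all genes as a description, without a test.

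The replicates did not show the genes equally. As many of the strongest peaks of each replicate were taken as the optimal set holds, 3206 of its 30000 relaxed peaks. Such a peak lay at 24 of the 73 genes in replicate 1, at 12 in replicate 2 and at 24 in replicate 3. The mean share was 27.4% ± 9.49 (SD, n = 3), against 13.2% ± 1.80 of all protein-coding genes, whose shares were 13.1%, 11.4% and 15.0%. Replicate 2 was thus the low one, at 16.4% of the 73 genes. Large subunit genes counted 15, 9 and 15, and small subunit genes 9, 3 and 9. In all 3 replicates 9 genes reached the strongest peaks, 7 large and 2 small subunit genes, where the share of all protein-coding genes was 6.99%.

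Most of the remaining genes had weaker peaks. The relaxed lists mix binding sites with background by design, and a relaxed peak alone is therefore common: 36.7%, 36.5% and 40.8% of all protein-coding genes had one in replicates 1, 2 and 3. Among the 73 genes the numbers were 45, 36 and 45, a mean of 57.5% ± 7.12 (SD, n = 3) against 38.0% ± 2.40. A relaxed peak was present in all 3 replicates at 27 of the 73 genes, with 21.2% over all genes. It was absent from all 3 at 17 genes, 8 large and 9 small subunit genes, with 43.5% over all genes. The weak relaxed peaks are not read as binding here.

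**Figure D1:**
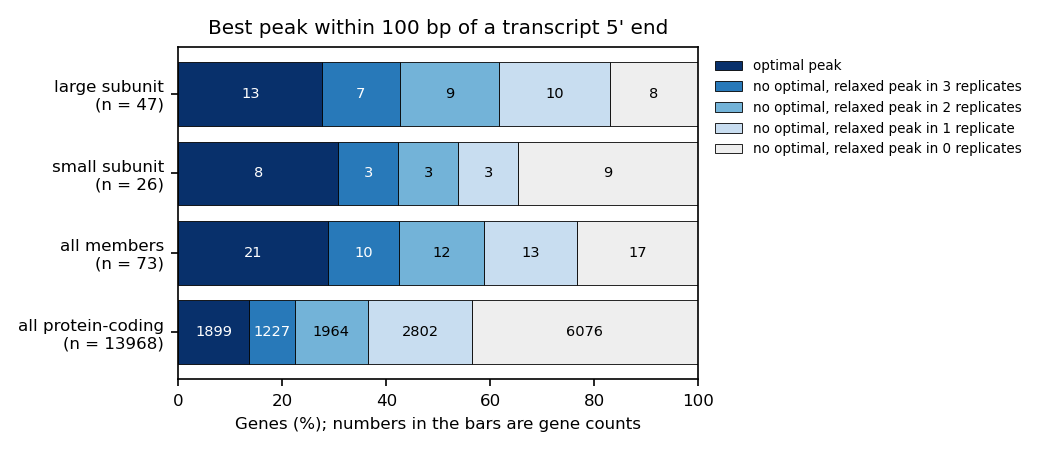
Genes by their best Bdp1-GFP peak within 100 bp of a transcript 5' end, in percent of each group on the horizontal axis, with gene counts in the bars. An optimal peak was present at 13 of 47 large and 8 of 26 small subunit genes, and 17 of the 73 genes had neither an optimal nor a relaxed peak.

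The 3 genes that stood apart are mRpS10, whose bacterial homologue lies in the head of the small subunit, mRpL41, which has no bacterial counterpart, and mRpL23, whose bacterial homologue lines the exit of the peptide tunnel. To set replicates side by side, the deposited peak signal was divided by a median taken over the optimal peaks, which was 43.5, 56.3 and 50.04 in replicates 1, 2 and 3. This quotient is called the relative signal below. For mRpS10 the deposited signals of 280, 396 and 267 gave relative signals of 6.43, 7.02 and 5.34, a mean of 6.27 ± 0.855 (SD, n = 3). For mRpL41 they were 4.99, 6.58 and 6.75, a mean of 6.11 ± 0.969 (SD, n = 3). For mRpL23 they were 4.86, 2.70 and 4.23, a mean of 3.93 ± 1.11 (SD, n = 3). The ranges of mRpS10 and mRpL41 overlap, while every replicate of mRpL23 lay below every replicate of the other 2 genes. In the pooled order of 3206 optimal peaks they held ranks 154, 163 and 238, and the next of the 73 genes, mRpL24, held rank 754. They were also the only 3 genes of the set above 1 in every replicate.

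**Figure D2:**
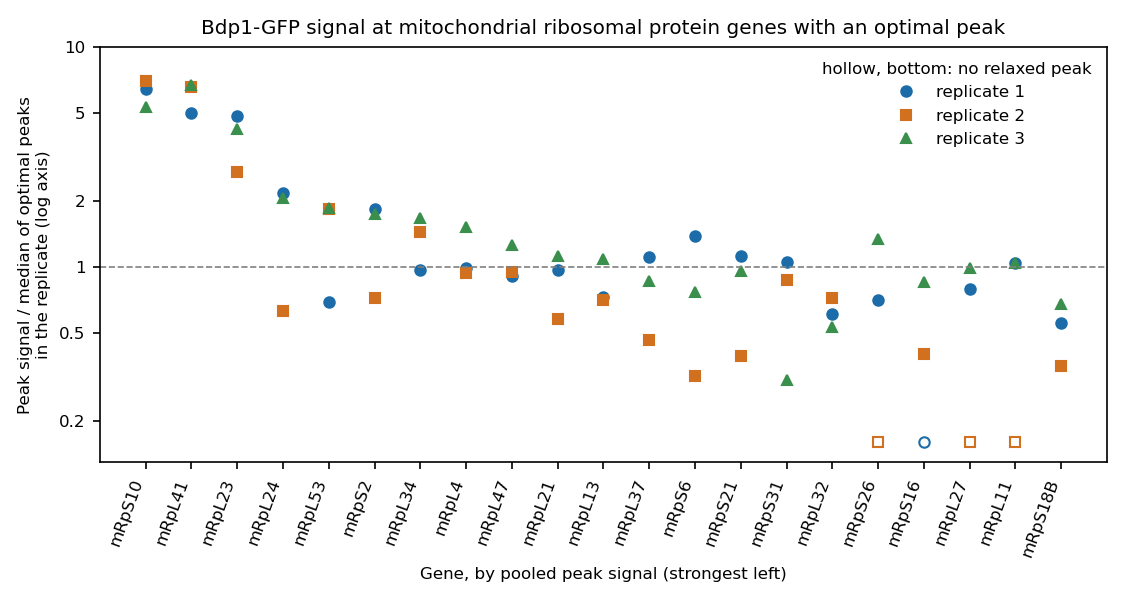
Relative signal (deposited signal divided by the replicate's median over optimal peaks, log axis) for the 21 genes with an optimal peak, ordered by pooled signal, with 1 point per replicate. mRpS10, mRpL41 and mRpL23 lie above 2 in every replicate, and the hollow marks at the bottom show the 4 genes without a relaxed peak in 1 replicate.

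The DNA under 6 summits is shown for the 2 strongest genes outside the second chromosome, for mRpL4, whose peak had no other gene in reach, and for mRpL24, mRpS2 and mRpL47, whose summits lay close to the 5' end of a neighbour. The stretches hold up to 100 bases on each side of the optimal summit, shortened where an exon begins, and are written 5' to 3' on the strand of the named gene, from the NCBI RefSeq assembly Release 6 plus ISO1 MT (dm6). Capitals mark the summit with up to 10 bases on either side.
mRpS10 (chr3R:15229420-15229620, plus strand): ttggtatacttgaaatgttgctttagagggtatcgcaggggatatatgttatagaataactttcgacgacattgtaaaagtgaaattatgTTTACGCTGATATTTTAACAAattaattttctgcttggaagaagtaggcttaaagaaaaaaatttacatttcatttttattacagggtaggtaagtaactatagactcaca
mRpL23 (chr3L:2373502-2373596, minus strand): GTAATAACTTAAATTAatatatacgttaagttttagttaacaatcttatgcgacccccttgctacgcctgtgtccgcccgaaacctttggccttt
mRpL4 (chr2L:16329146-16329346, minus strand): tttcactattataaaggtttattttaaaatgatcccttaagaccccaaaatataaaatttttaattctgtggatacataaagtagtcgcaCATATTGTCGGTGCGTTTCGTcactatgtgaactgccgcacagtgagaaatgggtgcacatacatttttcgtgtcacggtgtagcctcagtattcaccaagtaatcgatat
mRpL24 (chr2L:4945451-4945578, minus strand): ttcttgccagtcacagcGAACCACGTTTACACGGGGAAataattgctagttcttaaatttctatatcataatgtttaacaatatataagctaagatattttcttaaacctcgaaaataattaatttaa
mRpS2 (chr2L:4850520-4850640, minus strand): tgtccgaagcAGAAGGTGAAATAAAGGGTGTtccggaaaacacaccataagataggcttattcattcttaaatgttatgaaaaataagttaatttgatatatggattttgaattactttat
mRpL47 (chr3R:9515909-9516006, minus strand): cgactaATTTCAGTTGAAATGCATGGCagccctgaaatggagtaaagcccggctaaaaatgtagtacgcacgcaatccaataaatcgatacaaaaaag
The stretch at mRpS10 is 70.1% A and T, and the one at mRpL23 61.1%. A computer search for the B box, the internal promoter element of tRNA genes, found it within 100 bp of the 5' end of none of the 73 genes, where 0.0573% of all protein-coding genes had it. No match says only that these letters are not in this window.

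Summits lay upstream of the genes rather than on their 5' ends. The median position was -127 bp, upstream being negative, for the 21 genes, with 19 of 21 upstream, against -104 bp for all 1899 protein-coding genes with an optimal peak, of which 1685 were upstream. From the strongest peaks of each replicate the medians were -127, -124 and -153 bp over 24, 12 and 24 of the genes, and -125, -86 and -98.5 bp over all protein-coding genes. The exceptions were mRpL23 and mRpS18B. At mRpL23 the summit lay in an intron, 87 bp downstream of the nearest of its 3 annotated 5' ends. At mRpS18B it lay 3 bp inside the first exon. For the 17 genes with a relaxed peak in all 3 replicates, the replicates' summits spread over a median of 28 bp. The spread was 13 bp at mRpS10 and 221 bp at mRpS31, the lowest and the highest.

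**Figure D3:**
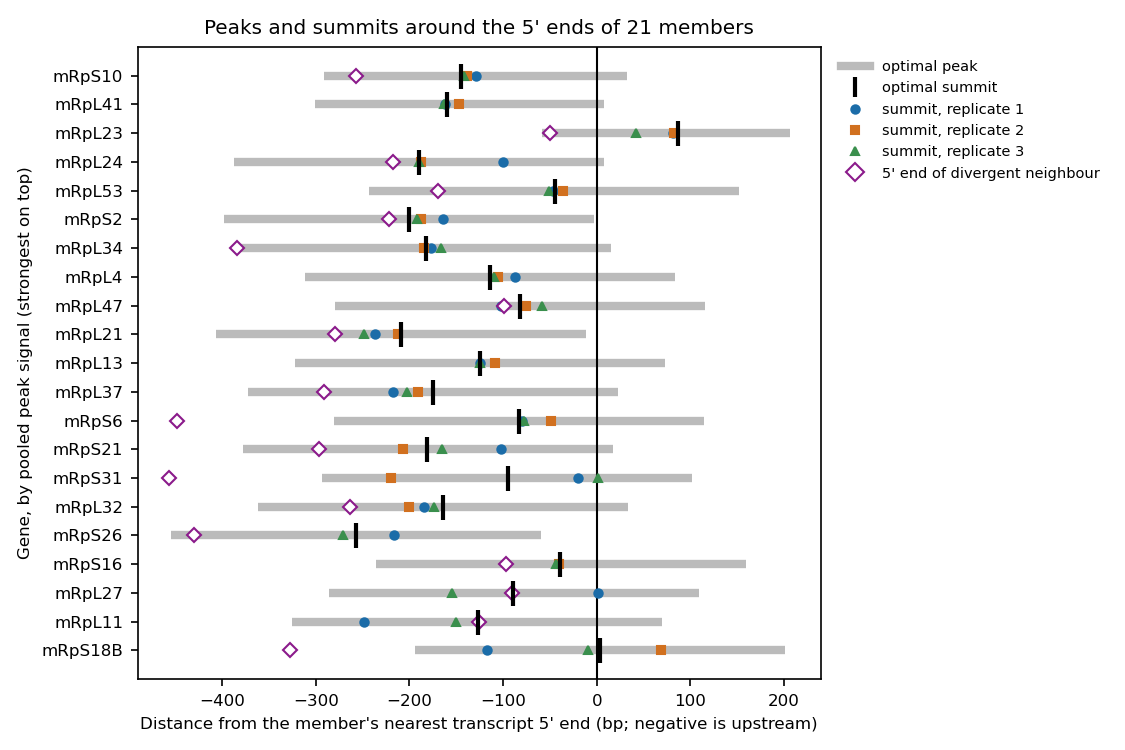
Optimal peaks (grey bars), optimal summits (black ticks) and replicate summits (coloured marks) of the 21 genes, in bp from the gene's 5' end nearest to each summit, upstream being negative. Diamonds mark the 5' end of a divergent neighbour. All optimal summits but those of mRpL23 and mRpS18B lie upstream, and 15 of the 18 with a divergent neighbour lie between both 5' ends.

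Most of these genes share their upstream region with another gene. A divergent neighbour, a protein-coding gene on the other strand with its 5' end within 500 bp head to head, was present at 53 of the 73 genes (72.6%), against 27.8% of all protein-coding genes. No 2 of the 73 genes neighboured each other. A Bdp1-GFP peak was more frequent at divergent pairs throughout the genome: 30.0% of all protein-coding genes with such a neighbour had an optimal peak, and 7.27% of those without. Among the 73 genes it was 18 of 53 (34.0%, exact interval 21.5 to 48.3%) with a neighbour and 3 of 20 (15%, exact interval 3.21 to 37.9%) without. The share at the divergent genes was thus near that of all divergent genes, and the higher share of the whole set goes along with its many divergent pairs. Whether the pairing accounts for it was not tested. The 3 peaks without a neighbour were those of mRpL41, mRpL4 and mRpL13, all large subunit genes; of the 7 small subunit genes without a neighbour none had a peak, which allows a share of up to 41.0% by the exact interval.

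By distance between the 5' ends, 9 of 15 genes had an optimal peak at over 100 to 300 bp, 4 of 18 at up to 100 bp and 5 of 20 at over 300 to 500 bp. Over all protein-coding genes the same distances gave 36.3%, 25.3% and 24.98%. The middle class was thus the highest in both, and with 15 genes its share of 60% has an exact interval of 32.3 to 83.7%. In the 18 pairs with a peak, the 5' ends lay 24 to 457 bp apart, with a median of 260.5 bp. In the 35 pairs without one at the ribosomal protein gene the median distance was 281 bp. In 5 of those 35 pairs the neighbour alone had an optimal peak: mRpL20 (with Icmt), mRpL22 (with if), mRpS22 (with CG5003), mRpS23 (with CenG1A) and mRpS24 (with Apc2), at distances of 392 to 499 bp. The share of such pairs over all divergent genes is not given here. With windows of 100 bp, a peak can reach the neighbour alone more easily where the 5' ends lie far apart. The count and the distances are therefore not read as particular to these genes.

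**Figure D4:**
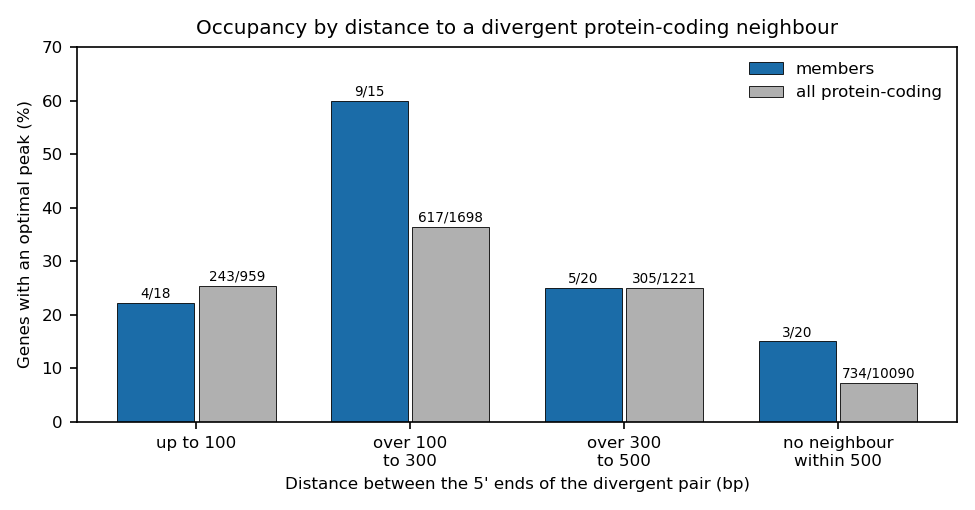
Share of genes with an optimal peak (%) by the distance between their 5' end and that of the divergent neighbour (bp), for the 73 genes and for all protein-coding genes, with counts above the bars. The class of over 100 to 300 bp is the highest in both, at 60% and 36.3%.

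A peak in such a gap cannot be given to one gene of the pair. Of the 18 summits, 15 lay between the 5' ends of both genes, 7 were nearer to the ribosomal protein gene and 11 nearer to the neighbour. The neighbour had an optimal peak in its own window in 15 of 18 pairs. These pair counts are not given here for all divergent genes with a peak, so they are not read as particular to this set. Counting a gene only where its own 5' end was as near to the summit as that of any protein-coding gene left 10 of the 73 genes (13.7%, exact interval 6.77 to 23.8%), 6 large and 4 small subunit genes, where the share of all protein-coding genes was 10.2%. By this rule, chosen after the data were seen, the set was near the background.

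The next genes are described by the place of their bacterial homologues, and were grouped after their peaks were known. mRpL23 and mRpL24 encode the homologues of the bacterial proteins at the tunnel exit, mRpL47 that of another protein beside it, and mRpL4 that of a protein reaching into the tunnel. mRpL22, homologue of a further protein that lines the tunnel, had neither an optimal nor a relaxed peak, and nor had mRpL17. The genes named here are not a full list of those with a place at the tunnel or its exit. The summit at mRpL23 lay at 3L:2373591, in a pair with CG9004 24 bp away. The peak of mRpL24 (2L:4945353-4945748) had relative signals of 2.17, 0.632 and 2.06 in replicates 1 to 3. Replicate 2 was low there, and its summit lay 28 bp from betaggt-I, which encodes a subunit of a protein prenyltransferase, and 190 bp from mRpL24. The peak of mRpL4 (2L:16329048-16329443), 114 bp upstream with no other gene in reach, had 0.995, 0.939 and 1.52. That of mRpL47 (3R:9515792-9516187) had 0.915, 0.952 and 1.26, with its summit 17 bp from the 5' ends of CG8176 and Kdm3, a histone demethylase gene.

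Another 6 large subunit genes with a peak have bacterial homologues, and at several of them the summit lay close to a neighbour. mRpL11, homologue of a protein at the base of the GTPase-associated stalk, had 1.04 in both replicates 1 and 3 and no relaxed peak in replicate 2. Its summit fell 1 bp inside the first exon of HtrA2, which encodes a mitochondrial protease. mRpL27, homologue of a protein beside the peptidyl transferase centre, had 0.796 and 0.993 in replicates 1 and 3 and none in replicate 2, with the summit 2 bp from CG15435. mRpL21 had 0.971, 0.579 and 1.12, its summit 70 bp from rept, the gene of the ATPase reptin. mRpL32 had 0.614, 0.725 and 0.534, below 1 throughout, and its neighbour qless encodes an enzyme of ubiquinone side chain synthesis. The summit there lay 164 bp from mRpL32 and 100 bp from qless. mRpL13 had 0.732, 0.712 and 1.09, 125 bp upstream of a 5' end that it shares with CG10602. mRpL34 had 0.967, 1.44 and 1.67, with the summit 182 bp from its own 5' end and 202 bp from that of Dg, dystroglycan. Of these 6 genes mRpL34 was the strongest, and replicate 2 lacked a relaxed peak at 2 of them.

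Among proteins without a bacterial counterpart, mRpL41 lay alone: its peak on 2R (15217609-15217918) had the summit 160 bp upstream and no other protein-coding 5' end in reach. mRpL53 had relative signals of 0.694, 1.83 and 1.86, low in replicate 1. Its summit, 45 bp upstream of a 5' end shared with CG33155, fell in an intron of AGO1, the Argonaute gene of the microRNA pathway. mRpL37 had 1.11, 0.466 and 0.869, highest in replicate 1, with its summit 175 bp upstream.

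In the small subunit only mRpS10 and mRpS2 lay above the median signal of all optimal peaks, 141.9 in the pooled list. The summit at mRpS10 (3R:15229520) fell 145 bp from its 5' end and 112 bp from that of Art3, an arginine methyltransferase gene 257 bp away. mRpS2 had 1.84, 0.724 and 1.74, with the summit 21 bp from Mon1, which acts in the activation of the late endosomal GTPase Rab7, and 201 bp from mRpS2. Both genes have bacterial homologues, and at mRpS2 replicate 2 was again the low one. mRpS6 had 1.38, 0.321 and 0.774, and mRpS21 1.13, 0.394 and 0.957. The neighbour of mRpS6, the F-BAR protein gene Cip4, had no optimal peak, while that of mRpS21, the DnaJ-like gene Droj2, had one. The summit at mRpS21 lay 181 bp from its own 5' end and 116 bp from that of Droj2. mRpS16 had 0.403 and 0.856 in replicates 2 and 3 and no relaxed peak in replicate 1, with the summit 39 bp from its own 5' end and 58 bp from that of cg, the zinc finger gene combgap. The mitochondria-specific mRpS26 had 0.706 and 1.35 in replicates 1 and 3 and none in replicate 2. Its summit lay 257 bp from its own 5' end and 173 bp from that of its neighbour CG13698. mRpS31 had 1.05, 0.877 and 0.308. mRpS18B, 1 of the S18-related proteins, had 0.557, 0.357 and 0.683 and was the weakest of the 21, at rank 3188. Their neighbours are CG13698 at mRpS26, hzg at mRpS31 and Kua at mRpS18B, and of these CG13698 alone had an optimal peak.

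Replicate 2 gave the lowest relative signal at 10 of the 17 genes with all 3 values, replicate 1 at 4 and replicate 3 at 3. Over the 1732 protein-coding genes of the same kind it was 44.5%, 39.3% and 16.3%. The median signal in the pooled list was 125 for the 21 genes and 141 for all protein-coding genes with an optimal peak, and 10 of the 21, the 3 strongest among them, lay above the median of all optimal peaks. The 3 strongest peaks were also narrower, at 324, 310 and 265 bp, while each of the other 18 was 396 bp wide, the width of 2573 of the 3206 optimal peaks. Narrower peaks were not particular to these genes, as 487 of the 3206 were narrower.

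Of the 52 genes without an optimal peak, 10 had a relaxed peak in all 3 replicates, 12 in 2, 13 in 1 and 17 in none. In percent of all 73 genes these were 13.7%, 16.4%, 17.8% and 23.3%. The same classes held 8.78%, 14.1%, 20.1% and 43.5% of all 13968 protein-coding genes. None of the 52 reached the strongest peaks in all 3 replicates, and 8 did so in at least 1, a count whose share over all genes is not given here. Among these 8, mRpL16 (ranks 2151 and 2603), mRpS22 (2320 and 2585) and mRpS7 (1678 and 2117) did so in both replicates 1 and 3. In replicates 2 and 3 it was mRpL42 (2551 and 1814). These 4 were picked for these ranks after their values were seen, so a low value in the remaining replicate follows from the choice. By mean rank over the 3 replicates the highest were mRpL51 (5119), mRpL55 (6405), mRpS30 (7233) and mRpL48 (8208). Nearest to the optimal set in the pooled list was mRpL16, with a signal of 76.3 where the lowest optimal peak had 87.0, and nearest inside it mRpS18B, with 87.3.

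None of the 11 genes on the X chromosome had an optimal peak, which allows a share of up to 28.5% by the exact interval, and 11.1% of all X-linked protein-coding genes had one. A relaxed peak in at least 1 replicate was present at 5 of the 11 and absent from all replicates at 6, where 43.5% of all protein-coding genes had none. The share for X-linked genes alone is not given here. On the autosomal arms the counts were 6 of 12 on 2L, 4 of 12 on 2R, 5 of 17 on 3L and 6 of 21 on 3R, where 13.4%, 13.0%, 14.2% and 15.6% of all protein-coding genes had a peak.

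Promoter motifs were found at genes with and without a peak. On either strand, within 100 bp of the most upstream 5' end, the DNA replication-related element (TATCGATA) was found at 15 of the 73 genes (20.5%), against 7.83% of all protein-coding genes. It was at 3 of the 21 genes with a peak (mRpL4, mRpL32 and mRpS18B) and at 12 of the 52 without. The 3 make up 14.3% of the 21, against 11.2% of the 1899 protein-coding genes with a peak. The core of Motif 1 (GGTCACACT), a housekeeping promoter element, was at 8 genes (11.0%, against 5.28%), 4 of them with a peak (mRpL13, mRpL27, mRpS16 and mRpS21). These 4 make up 19.0% of the 21, against 7.85% of all protein-coding genes with a peak. The E-box (CACGTG) was at 3 genes, mRpL23 among them, where 2.88% of all genes had it. The site of Ewg, the fly relative of NRF-1 (GCGCATGC), was at mRpL21 alone, against 0.702% of all genes. TATAAA, the TATA box, was at 20 genes (27.4%), against 29.2%. It was at 8 of the 21 with a peak (38.1%), against 22.1% of all protein-coding genes with a peak. None of these motifs contains another, and a match is not a site.

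In the 201 bases around the summit the share of A and T had a median of 66.7% over the 21 peaks, with a range of 46.8 to 75.1%. Over the 1365 optimal peaks at protein-coding 5' ends the median was 62.7%, with quartiles at 56.7% and 67.2%. mRpL53 and mRpS16 were the 2 poorest in A and T, at 46.8% and 51.2%, and mRpL37 was the richest.

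Other nuclear genes of mitochondrial gene expression carried peaks at 8 of 40 (20%). They were GatA and GatC, subunits of the amidotransferase that forms mitochondrial glutaminyl-tRNA, the synthetase genes ArgRS-m and LeuRS-m, the polymerase subunit gene PolG2, the single-strand binding protein gene mtSSB, mtTFB1 and mTerf5. GatC and PolG2 share a 5' end and a peak. The highest of these peaks, at mtSSB, held rank 1258, below 8 of the mitochondrial ribosomal protein genes. Genes of the cytoplasmic ribosome had a peak in 54 of 87 cases (62.1%). The 3 lists thus stood at 28.8%, 20% and 62.1%, beside 13.6% of all protein-coding genes. Counting a gene only where its own 5' end was nearest to the summit left 10 of 73, 6 of 40 and 49 of 87 genes. By that rule the share of all protein-coding genes was 10.2%. The mitochondrial lists are therefore not ranked against each other here.

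The share of the 73 genes with a peak moved with the peak set, together with that of all genes. With the stronger 1603 of the optimal peaks it was 10 genes (13.7%, against 6.69%). With optimal peaks that overlapped a strongest peak of all 3 replicates it was 11 genes (15.1%, against 7.35%). With a summit, not just an edge of the peak, inside the window it was 8 genes (11.0%, against 6.53%), and with windows of 500 bp it was 25 (34.2%, against 16.8%). Requiring the optimal peak to overlap a strongest peak of both remaining replicates gave 11 genes without replicate 1 (15.1%, against 8.99%), 17 without replicate 2 (23.3%, against 9.72%) and 12 without replicate 3 (16.4%, against 7.85%). In each of these settings the share lay above that of all protein-coding genes.

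**Figure D5:**
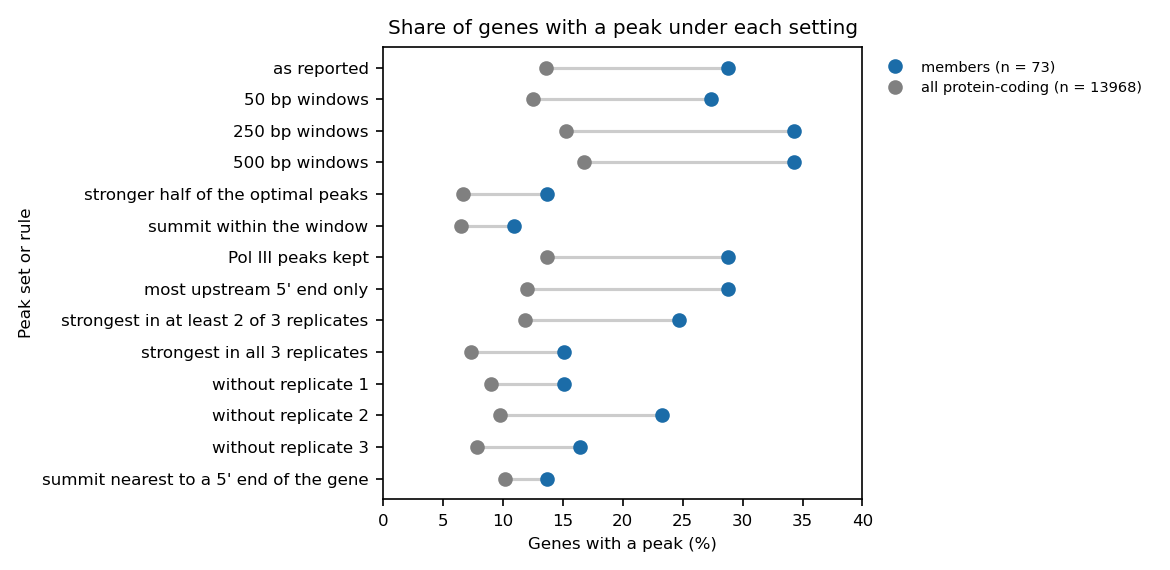
Share of genes with a peak (%) under each peak set or rule, for the 73 genes (blue) and all 13968 protein-coding genes (grey). The blue point lies to the right in every setting, and the distance is shortest where a gene was counted only if nearest to the summit (13.7% against 10.2%).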

How the data were processed

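Bdp1-GFP ChIP-seq of whole embryos gave 1 group of 3 biological replicates, per the labels. The authors deposited peak lists for builds dm6 and dm3. The 5 dm6 lists were used and the dm3 lists were not used here. The value is the peak signal in column 7 as the authors deposited it, whose scale between lists is not stated. Relaxed lists were called against a control, per the text deposited with the files. Aligner, peak caller and IDR cut-off were not given in the sources used here. Read totals are absent from the lists, and depth is therefore unknown. The optimal peaks are exactly the strongest of the pooled relaxed list, as found in the files. Columns of values that could be tied to no sample numbered 0.

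Coordinates are 1-based dm6 and genes are from Ensembl release 115. In the genome sequence used, 99.8% of 30618 annotated start codons read ATG, which matches the builds. A gene had a peak when at least 1 bp overlapped the 100 bp either side of any transcript 5' end. Peaks reaching 100 bp from any of 396 Pol III genes were left out of all lists when peaks were matched to genes. Ranks, the choice of the strongest peaks and the medians over all optimal peaks were taken with these peaks kept. In each replicate the highest overlapping peak was taken, and a mean is given only where all 3 had one. Of 30 listed names of mitochondrial gene expression 25 matched the annotation, to which 15 synthetase genes were added. Replicates are of 1 group, so no test was made and no p-value is given. Overlap, position and neighbour functions were checked on simulated peaks placed at known distances. Work used Python 3.11.15, numpy 2.4.6, pandas 2.3.3, scipy 1.17.1 and matplotlib 3.10.9.

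The members, lists, motifs and alternatives were chosen with earlier results of these data known. By the naming rule, each member with an optimal peak and its divergent neighbour is named, except 1 neighbour that is not reported here, with the 4 others of highest mean rank; other genes named without a peak were chosen after their values were seen. The sequences shown are few and were chosen for the summits the text describes.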

Additional observations from a re-analysis of the deposited data

How the results depend on the processing

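Only 1 group was measured, in 3 replicates, with no read totals, so neither depth nor a condition can be weighed, and weak peaks cannot be told from background. The counts of genes with a peak were 21 in all, 13 large and 8 small subunit genes. They were 10, 8 and 2 with the stronger 1603 optimal peaks, 8, 4 and 4 with the summit inside the window, and 11, 8 and 3 with peaks strongest in all 3 replicates. A summit nearest to the gene's own 5' end, a rule chosen after the data were seen, gave 10, 6 and 4. Leaving out each replicate in turn, with a strongest peak required in both others, gave 11 to 17, 8 to 12 and 3 to 5; the count of all was lowest without replicate 1 (11) and without replicate 3 (12). Genes with a peak and a divergent neighbour, 18 as reported, were 8 with 5' ends at most 250 bp apart, 8 with the stronger 1603 peaks and 8 to 14 with a replicate left out. The median summit position of -127 bp became -152.5 bp with the stronger 1603 peaks, -72 bp and -103 bp with all relaxed peaks of replicates 2 and 3, and -145 to -126 bp with a replicate left out. Where fewer peaks enter by construction, fewer genes can have one; for the summit position the cause was not tested. With windows of 250 bp around the 5' end, the E-box was found at 9 genes (12.3%, against 6.97% of all protein-coding genes). The TATA box was then found at 41 (56.2%, against 54.9%), so its share stayed near that of all genes. The other 31 values kept within 1.5 times the reported count, or within the spread of the summits, and none changed sign. No paired analysis was possible because there is only 1 group.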
